A study of Mus musculus with 9 samples.

Results

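The genes described here encode the enzymes that make purine and pyrimidine nucleotides and the deoxynucleotides (dNTPs) used for DNA. They were taken from a list of 32 gene symbols, and for each gene the probe set with the highest mean over all 9 arrays was used. A single-symbol probe set was found for 31 of the 32, out of 18193 genes named on the array, and all 31 passed the filter on dim probe sets that left 12828 genes for testing. Impdh2 was not analysed here.

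The arrays, 3 in each of 3 groups, were hybridised with total RNA of pre-B cells from mice. Pre-B cells are the stage of B lymphocyte development at which the light-chain genes are assembled. Every group was labelled IRF4,8 -/-, that is, null for the transcription factors IRF4 and IRF8. IL-7 is the cytokine that keeps such cells dividing. The low IL-7 group had 0.25 ng of it, the +IRF4 group had IRF4 put back in 5 ng of IL-7 (high IL-7), and the high IL-7 group had 5 ng alone. The labels disagree on whether these amounts are per millilitre or per microlitre. How IRF4 was delivered, whether a mock-treated group existed, and the strain and age of the animals are not given in the labels, nor is it stated whether arrays of the same group stand for separate cultures. All p-values therefore measure the spread between these arrays, which may be technical. Changes are differences of log2(intensity + 16) with the standard error (SE) from limma, and a gene was called where the p, adjusted by Benjamini-Hochberg over the 12828 genes, was under 0.05.

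As a check on the labels, Irf4 was read by 2 probe sets. The dimmer was at 316, 270.4 and 257 in low IL-7, 1088, 1379 and 2543 on the IRF4 arrays, and 381, 202 and 261 in high IL-7, higher on every array labelled +IRF4, a change of 2.45 against high IL-7 (adjusted p = 0.00098 over all named probe sets). The brighter changed by -0.40 there, the opposite way, and was at least 3702 on every array. Both Irf8 probe sets were bright as well, from 1966 to 4426 over the 9 arrays, all labelled null for Irf8. The labels do not give which part of either gene was deleted, so whether these probes lie within it is not known, and neither the brighter Irf4 probe set nor those of Irf8 can check the null label.

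Purine rings are built on activated ribose, phosphoribosyl pyrophosphate (PRPP), with carbon atoms carried by folate, and end in inosine monophosphate (IMP), from which AMP and GMP branch. Pyrimidine rings are built before they are joined to PRPP and lead to UTP and CTP. Ribonucleotide reductase turns ribonucleoside diphosphates into their deoxy forms, and salvage enzymes return free bases and nucleosides to the pool. Dividing lymphocytes are known to rely on the de novo routes, and genes of these routes are well-known targets of the MYC family.

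In low IL-7, the nucleotide synthesis genes were mostly lower than in high IL-7. Of the 31 genes, 21 fell (67.7%, against 19.6% of all genes tested), 2 rose (6.45%, against 17.8% of all genes) and 8 did not pass the test. The falls reached at least 2-fold for 13 genes (41.9%, against 4.11% of all genes). For 21 genes the low IL-7 arrays lay wholly below the high IL-7 arrays (24.8% of all genes did so). The median change of the 31 was -0.69, with a range of -1.77 to 0.82, and the median of all genes was 0.02. With IRF4 in high IL-7, none of the 31 was called relative to high IL-7 alone, where 2.85% of all genes were called. The arrays had near-equal medians and values are relative to the other transcripts on an array, so a change in total RNA per cell is not seen, and in bulk RNA fewer cells of a type and less RNA per cell cannot be told apart.

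**Figure D1:**
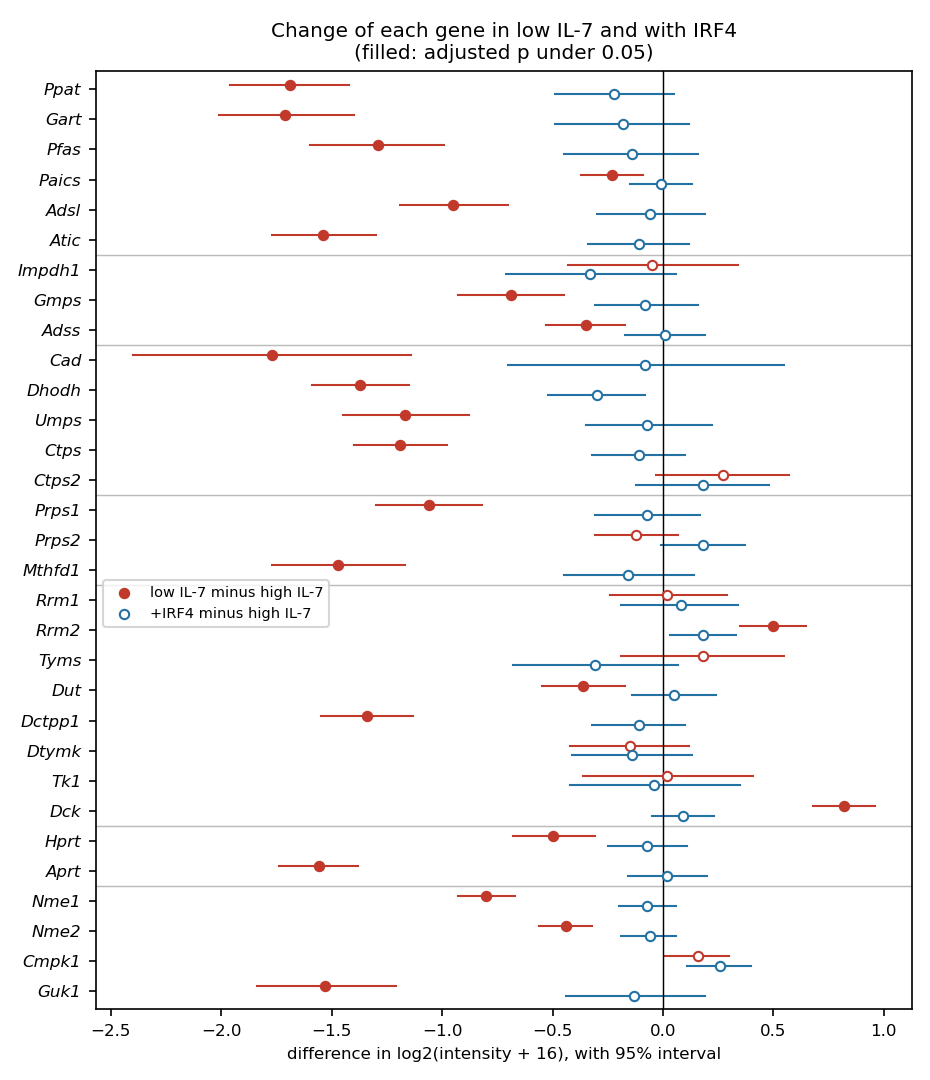
Each row is a gene, ordered by role (purine de novo, AMP and GMP branch, pyrimidine, PRPP and folate, dNTP supply, base salvage, nucleotide kinases), and the x axis is the difference in log2(intensity + 16) with its 95% interval. Red points are low IL-7 minus high IL-7, from -1.77 for Cad to 0.82 for Dck, blue points are +IRF4 minus high IL-7, from -0.33 to 0.26, and filled points passed an adjusted p of 0.05.

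All 6 enzymes of the de novo purine ring fell in low IL-7, with a median change of -1.42. Ppat encodes the amidotransferase of the committed step. Its intensity was 581, 420.2 and 506 in low IL-7, 1488, 1476 and 1272 on the IRF4 arrays, and 1659.9, 1533 and 1736 in high IL-7. The low IL-7 arrays lay below all others, and IRF4 arrays were slightly under those of high IL-7. The change in low IL-7 was -1.69 (SE 0.12, adjusted p = 3.42e-06), so that Ppat fell by 69%. Gart, the trifunctional enzyme that carries several middle steps, was at 1573, 1109.5 and 1108 in low IL-7, 3565, 3593 and 3686 on the IRF4 arrays, and 4767, 3762 and 3852 in high IL-7. It changed by -1.71 (SE 0.14, adjusted p = 6.21e-06), and its 4 probe sets all fell, by 0.91 to 1.93. Atic, which completes the ring to give IMP, was at 1614, 1390.2 and 1316 in low IL-7, 3726, 4262 and 3696 on the IRF4 arrays, and 4438, 4511 and 3689 in high IL-7, a change of -1.54 (SE 0.11, adjusted p = 2.57e-06). Pfas, the amidotransferase that follows Gart's early steps, changed by -1.29 (SE 0.14, adjusted p = 4.04e-05), and Adsl, adenylosuccinate lyase, by -0.95 (SE 0.11, adjusted p = 6.96e-05). For each of these 5 genes the 3 low IL-7 arrays were below the 3 high IL-7 arrays and the 3 IRF4 arrays.

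Paics, the bifunctional carboxylase and synthetase of the same route, had the smallest fall of the 6. Its intensity was 8879, 7582 and 7815 in low IL-7, 9445, 9024 and 9711 on the IRF4 arrays, and 9946, 9075 and 9432 in high IL-7. The change was -0.23 (SE 0.06, adjusted p = 0.0145), so that Paics fell by 14.8%, where Ppat fell by 69%. The call was lost without high IL-7 replicate 1 (adjusted p = 0.0503), without low IL-7 replicate 2 or 3 (0.0655 and 0.0579), without a variance trend (0.051) and with the mean of its 3 probe sets (0.089). The dimmer probe sets changed by -0.18 and -0.02.

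Ppat and Paics lie head to head, with start sites 276 bases apart in RefSeq and the transcribed parts overlapping at their 5′ ends. Because these neighbours changed by such different amounts, their promoter windows are shown with that of Atic, the member of the route with an E-box (CACGTG, the MYC family's core motif) closest to its start. The windows run from 250 bases before to 50 after the start site, 5′ to 3′ on the gene's own strand, in RefSeq's annotation of GRCm38.p6 (chr5:76951529-76951828, minus strand for Ppat, chr5:76951052-76951351, plus strand for Paics, chr1:71556906-71557205, plus strand for Atic). Capitals mark every match, on either strand, to the 4 motifs searched. These were the E-box CACGTG, the NF-Y core CCAAT, the E2F-like motif TTCCCGC and the likewise E2F-like motif TTGGCGC.
Ppat: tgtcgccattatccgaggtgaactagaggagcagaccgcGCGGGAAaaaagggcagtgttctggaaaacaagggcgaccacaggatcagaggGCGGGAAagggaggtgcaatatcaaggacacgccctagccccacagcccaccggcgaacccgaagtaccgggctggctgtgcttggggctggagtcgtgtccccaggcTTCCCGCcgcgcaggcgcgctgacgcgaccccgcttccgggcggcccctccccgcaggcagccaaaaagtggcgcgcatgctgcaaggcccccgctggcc
Paics: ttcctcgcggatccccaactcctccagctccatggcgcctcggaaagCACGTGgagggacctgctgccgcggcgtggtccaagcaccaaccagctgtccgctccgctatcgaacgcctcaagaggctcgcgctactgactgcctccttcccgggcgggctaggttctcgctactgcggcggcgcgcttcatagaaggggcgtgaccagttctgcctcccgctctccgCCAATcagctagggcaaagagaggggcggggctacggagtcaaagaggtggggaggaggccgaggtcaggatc
Atic: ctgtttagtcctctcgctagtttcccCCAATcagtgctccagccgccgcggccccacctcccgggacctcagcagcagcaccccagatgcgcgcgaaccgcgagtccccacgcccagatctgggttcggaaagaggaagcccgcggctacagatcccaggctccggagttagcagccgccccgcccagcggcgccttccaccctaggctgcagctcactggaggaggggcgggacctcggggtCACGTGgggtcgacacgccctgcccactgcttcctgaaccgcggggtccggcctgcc
The Paics window holds CACGTG 203 bases before its start and CCAAT 23 before it. The Ppat window holds no CACGTG and 3 matches to TTCCCGC. In the Atic window CACGTG begins 7 bases before the start.

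Promoter windows were found for 29 of the 31 genes, with no entry for Pfas and Dhodh. CACGTG was in the windows of 5 of the 29 (17.2%, against 8.09% of 27025 genes): Paics, Atic, Tyms, Dtymk and Nme1. Among the genes that fell it was in 3 of 19 (15.8%), and among those not called in low against high IL-7 in 2 of 8. CCAAT was in 11 of the 29 (37.9%, against 41.1% of all genes), TTCCCGC in 5 (17.2%, against 5.29%) and TTGGCGC in 2 (6.9%, against 2.85%). These counts describe letters in short windows. Most of the genes that fell by over 2-fold, Cad, Gart and Ppat among them, had no CACGTG in this window. Bases outside the windows were not searched, so such a gene may hold the motif elsewhere. The part of any motif in the changes was not tested.

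At the branch from IMP, Gmps, which makes GMP, was at 2467, 1882 and 1921 in low IL-7, 3248, 3367 and 2934 on the IRF4 arrays, and 3582, 3198 and 3281 in high IL-7. The low IL-7 arrays were the lowest 3, a change of -0.69 (SE 0.11, adjusted p = 0.000542). The dimmer Gmps probe sets changed by -0.50 and -0.41 and did not pass (adjusted p = 0.0841 and 0.0541 over all named probe sets). Adss, the adenylosuccinate synthetase that opens the AMP arm, changed by -0.35 (SE 0.08, adjusted p = 0.00622). Impdh1, an IMP dehydrogenase on the GMP arm, was at 1061, 886 and 893 in low IL-7, 765, 684 and 888 on the IRF4 arrays, and 1315, 868 and 812 in high IL-7. Its groups overlapped, with high IL-7 replicate 1 the brightest array, and the change of -0.05 did not pass (95% interval -0.43 to 0.34, adjusted p = 0.861).

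In the pyrimidine route 4 of 5 genes fell in low IL-7 (80%, against 19.6% of all genes), each at least 2-fold by its brightest probe set. The dimmest Cad probe set changed by -0.60, the dimmer Dhodh one by -0.76, and the dimmer Umps ones by -0.92, -1 and -0.11. Cad, the trifunctional enzyme that opens the route, had the largest fall of the 31 with all arrays. It was at 669, 549 and 528 in low IL-7, 1574, 1602 and 2751 on the IRF4 arrays, and 3210.1, 1539 and 1649 in high IL-7. High IL-7 replicate 1 and IRF4 replicate 3 stood well above the other arrays of their groups, yet every low IL-7 array lay below all the rest. The change was -1.77 (SE 0.28, adjusted p = 0.000626), or -1.44 without high IL-7 replicate 1 (adjusted p = 0.000773). Without that array several genes fell further than Cad, among them Ppat (-1.68), Gart (-1.60), Atic (-1.50) and Aprt (-1.50). With the mean of all probe sets Cad was at -1.36 and Ppat at -1.85. The same arrays had the lowest signal of the 18S control probe sets, 6.53 and 6.41 on the log2 scale against 7.70 to 8.49 in the other 7. Their Actb 3′ to 5′ log2 difference, a sign of RNA quality, was also lowest, 0.28 and 0.33 against 0.46 to 0.61. In all, 13 of the 31 genes were highest in their groups on both arrays, among them Cad, Pfas, Umps, Guk1, Impdh1, Gart and Aprt. The share of all genes with this pattern was not counted, so the 13 cannot be read as particular to these genes. The part of the 18S and Actb differences in the results was not tested. The low IL-7 arrays also differed. The mean of the 31 genes was 10.90 on the log2 scale on low IL-7 replicate 1, against 10.62 and 10.66 on replicates 2 and 3. Without low IL-7 replicate 1, 21 genes were called lower than in high IL-7.

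Dhodh, the mitochondrial dehydrogenase of the route, was dim, at 207, 187 and 184 in low IL-7, 422, 476 and 376 on the IRF4 arrays, and 535, 497 and 542 in high IL-7. The 3 groups did not overlap, and in low IL-7 the change was -1.37 (SE 0.10, adjusted p = 3.52e-06). Umps, which makes UMP, was at 907, 644 and 724 in low IL-7, 1553, 1537 and 1809.9 on the IRF4 arrays, and 1863, 1595 and 1668 in high IL-7, a change of -1.17 (SE 0.13, adjusted p = 5.03e-05) with the low IL-7 arrays lowest. Ctps, a CTP synthetase, was at 1122, 921 and 1008 in low IL-7, 2242, 2192 and 2066 on the IRF4 arrays, and 2152, 2330 and 2543 in high IL-7, a change of -1.19 (SE 0.10, adjusted p = 6.21e-06). The other CTP synthetase gene, Ctps2, did not pass. It was at 1506, 1082 and 1267 in low IL-7, 1363, 1219.6 and 1023 on the IRF4 arrays, and 1043, 1099.8 and 1016 in high IL-7, a change of 0.27 (95% interval -0.03 to 0.57, adjusted p = 0.144). It passed as a rise after quantile normalization (0.34, adjusted p = 0.0302) and with array weights (0.28, adjusted p = 0.00251).

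**Figure D2:**
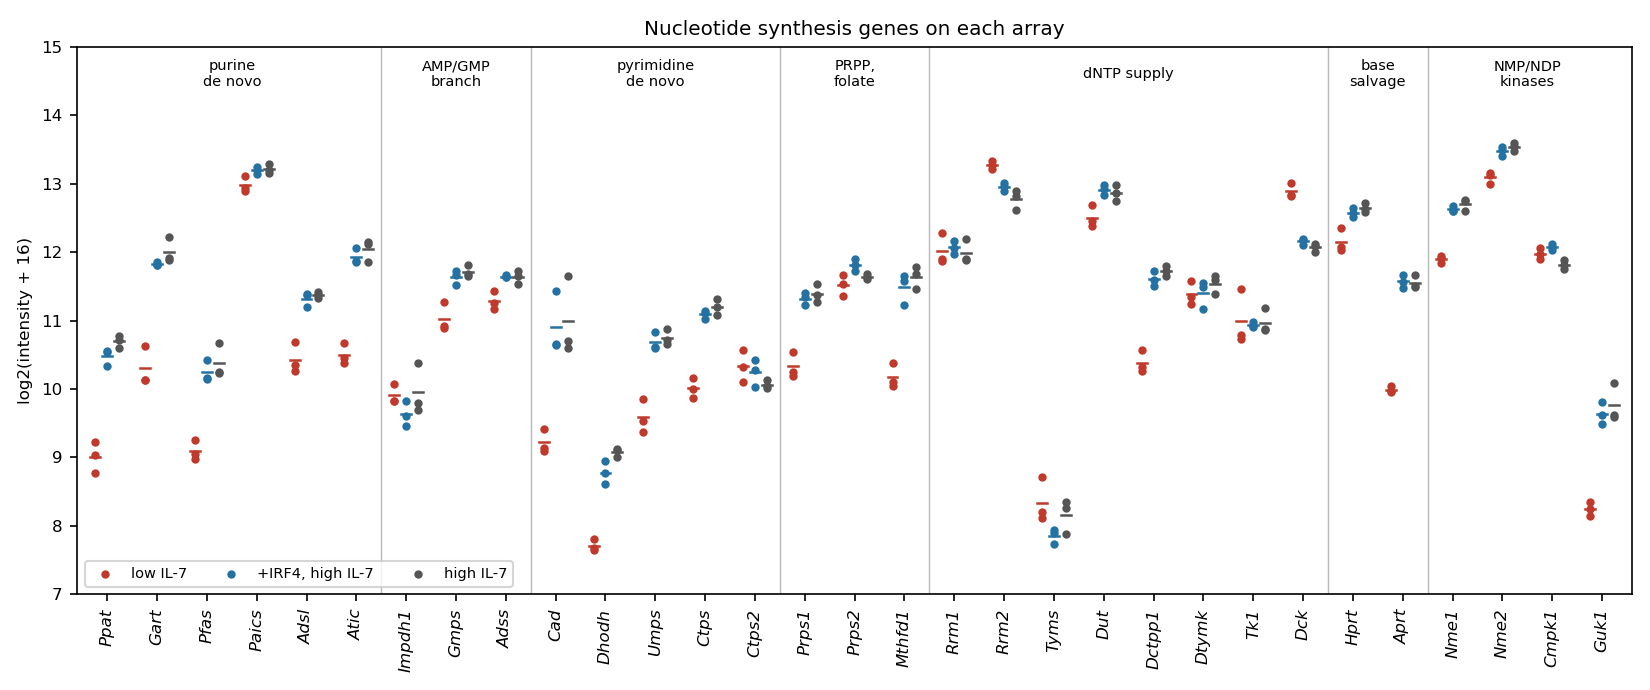
The y axis is log2(intensity + 16) and each column is a gene, grouped by role. Points are the 3 arrays of low IL-7 (red), +IRF4 in high IL-7 (blue) and high IL-7 (grey), with a bar at each group's mean; for Ppat the low IL-7 mean was 9.01, against 10.48 with IRF4 and 10.69 in high IL-7.

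The genes that supply PRPP and charged folate also included clear falls. Prps1, a PRPP synthetase, was at 1471, 1157 and 1204 in low IL-7, 2578, 2374 and 2684 on the IRF4 arrays, and 2948, 2447 and 2628 in high IL-7. It changed by -1.06 (SE 0.11, adjusted p = 2.87e-05) in low IL-7. Its isozyme Prps2 was at 3239, 2602 and 2939.5 in low IL-7, 3596, 3359 and 3821 on the IRF4 arrays, and 3101, 3251 and 3171 in high IL-7, where low and high IL-7 overlapped and the change of -0.12 did not pass (95% interval -0.31 to 0.07, adjusted p = 0.304). The 2 dimmer Prps2 probe sets fell, by 0.43 and 0.62 (adjusted p = 0.0301 and 0.00303 over all named probe sets), so its probe sets disagree. Mthfd1, the cytosolic enzyme that charges folate with the carbon units for purine synthesis, was at 1311, 1037 and 1083 in low IL-7, 3032, 3199 and 2387 on the IRF4 arrays, and 2809, 3268 and 3510.2 in high IL-7. It changed by -1.47 (SE 0.13, adjusted p = 1.34e-05), and all 3 of its probe sets fell, by 1.47 to 1.70.

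The 8 genes of dNTP supply divided in low IL-7 into 2 that fell, 2 that rose and 4 that did not pass (25% lower and 25% higher, near the 19.6% and 17.8% of all genes), with a median change of 0.02. Dck, the deoxycytidine kinase that salvages deoxynucleosides, had the largest rise of the 31. It was at 7291, 7203 and 8255 in low IL-7, 4612, 4406 and 4686 on the IRF4 arrays, and 4097, 4424 and 4345 in high IL-7. The low IL-7 arrays lay above all others, the change was 0.82 (SE 0.06, adjusted p = 5.59e-06), a rise of 76.3%, and all 3 probe sets rose, by 0.72 to 0.82. Rrm2, the regulated small subunit of ribonucleotide reductase, was at 10285, 9521 and 9886 in low IL-7, 7998, 8198 and 7573 on the IRF4 arrays, and 6264, 7572 and 7228 in high IL-7, a change of 0.50 (SE 0.07, adjusted p = 0.000235). The Rrm2 probe set used here has the suffix that marks probes able to match related transcripts. Of the 2 other Rrm2 probe sets the brighter rose by 0.35 (adjusted p = 0.00464 over all named probe sets) and the dimmest changed by 0.07 (adjusted p = 0.772). Rrm1, the large subunit, overlapped between groups and changed by 0.02 (95% interval -0.24 to 0.29, adjusted p = 0.909).

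Dctpp1, a pyrophosphatase that clears dCTP and modified cytidine triphosphates, was the dNTP gene that fell most. It was at 1498, 1213 and 1268 in low IL-7, 3069, 3372 and 2901 on the IRF4 arrays, and 3202, 3371 and 3528 in high IL-7, with the low IL-7 arrays apart from the rest, a change of -1.34 (SE 0.09, adjusted p = 2.97e-06). Dut, which destroys dUTP and so yields dUMP for thymidylate, changed by -0.36 (SE 0.09, adjusted p = 0.00735). The thymidylate genes did not pass: Tk1, thymidine kinase, changed by 0.02 (95% interval -0.36 to 0.41) and Dtymk, thymidylate kinase, by -0.15 (95% interval -0.42 to 0.12). Tk1 was at 2793, 1748 and 1690 in low IL-7 and 2301, 1838 and 1855 in high IL-7, with low IL-7 replicate 1 the brightest. With single arrays left out its change ran from -0.21 to 0.15. For Dtymk the dimmest of 3 probe sets fell by 0.57 (adjusted p = 0.00647 over all named probe sets). Tyms, thymidylate synthase, was read by dim probe sets, the brightest at 403, 259.6 and 278 in low IL-7, 196, 222 and 229 on the IRF4 arrays, and 309, 290.4 and 218 in high IL-7, and changed by 0.18 (95% interval -0.19 to 0.55, adjusted p = 0.449).

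Both genes of base salvage fell in low IL-7, by unequal amounts. Aprt, which returns adenine to AMP, was at 976, 1039.9 and 985 in low IL-7, 2836, 3017 and 3247 on the IRF4 arrays, and 3240.1, 2846 and 2882 in high IL-7. Its low IL-7 arrays stood at about the same level and far below the others, a change of -1.56 (SE 0.08, adjusted p = 6.4e-07), the smallest adjusted p of the 31. Hprt, which returns hypoxanthine and guanine to nucleotides, was at 5210, 4292 and 4173 in low IL-7, 6375, 6098 and 5827 on the IRF4 arrays, and 6759, 6128 and 6329 in high IL-7, a change of -0.50 (SE 0.08, adjusted p = 0.000871).

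Of the 4 kinases that phosphorylate nucleoside mono- and diphosphates, 3 fell. Guk1, guanylate kinase, was at 308, 286 and 266 in low IL-7, 698, 773 and 882 on the IRF4 arrays, and 1070, 756 and 769 in high IL-7, a change of -1.53 (SE 0.14, adjusted p = 1.58e-05). Nme1, a nucleoside diphosphate kinase, was at 3926, 3828 and 3644 in low IL-7, 6212, 6499 and 6195 on the IRF4 arrays, and 6185, 6841 and 6909 in high IL-7, with the low IL-7 arrays lowest and a change of -0.80 (SE 0.06, adjusted p = 3.62e-06). Its close relative Nme2 changed by -0.44 (SE 0.05, adjusted p = 0.000104). The Nme1 probe set used here has the suffix that marks probes able to match related transcripts, and the other Nme1 probe set fell by 1.32 (adjusted p = 1.96e-06 over all named probe sets). Cmpk1, the UMP and CMP kinase, was at 4261, 3987 and 3787 in low IL-7, 4414, 4184 and 4304 on the IRF4 arrays, and 3781, 3434 and 3569.5 in high IL-7. The low IL-7 arrays all lay above the high IL-7 arrays, but the change of 0.16 did not pass (adjusted p = 0.0823).

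Of this pair only Nme1 holds CACGTG in its windows. The upstream window of its 2 is shown for that reason (chr11:93968223-93968522, minus strand, RefSeq's GRCm38.p6), with the match in capitals, 18 bases before the start.
Nme1: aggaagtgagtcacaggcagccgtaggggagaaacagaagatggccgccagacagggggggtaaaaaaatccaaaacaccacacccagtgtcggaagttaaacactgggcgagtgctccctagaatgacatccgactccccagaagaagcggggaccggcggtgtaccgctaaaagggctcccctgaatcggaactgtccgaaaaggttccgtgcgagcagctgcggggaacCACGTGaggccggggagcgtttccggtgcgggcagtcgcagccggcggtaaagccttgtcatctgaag

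Enzymes with 2 gene copies, and the 2 reductase subunits, allowed a comparison within each array. The size of such a difference depends on the probes, so its change between groups is what is read. The log2 difference of Ctps minus Ctps2 was -0.42, -0.23 and -0.33 in low IL-7, 0.71, 0.84 and 1 on the IRF4 arrays, and 1.03, 1.07 and 1.31 in high IL-7. The 3 groups did not overlap, and between low and high IL-7 the difference of changes was -1.46. For Prps1 minus Prps2 the difference was -1.13, -1.16 and -1.28 in low IL-7, -0.48, -0.50 and -0.51 on the IRF4 arrays, and -0.07, -0.41 and -0.27 in high IL-7, a difference of changes of -0.94. Nme1 fell more than Nme2, with a difference of changes of -0.36 and no overlap. For Rrm1 against Rrm2 it was -0.48, also with no overlap. With IRF4 against high IL-7 the difference of changes was -0.29 for the Ctps pair and -0.24 for the Prps pair, without overlap, and -0.01 and -0.10 for the Nme and reductase pairs, with overlap (p = 0.7 for both, exact permutation). An exact two-sided permutation test over 3 against 3 arrays cannot go below p = 0.1, which all 4 pairs reached between low and high IL-7 (adjusted p = 0.12 over 12 comparisons), so these sizes are a description. With the mean of all probe sets the difference shrank to -0.67 for the Prps pair and to -0.10 for the reductase pair, and grew to -0.62 for the Nme pair.

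**Figure D3:**
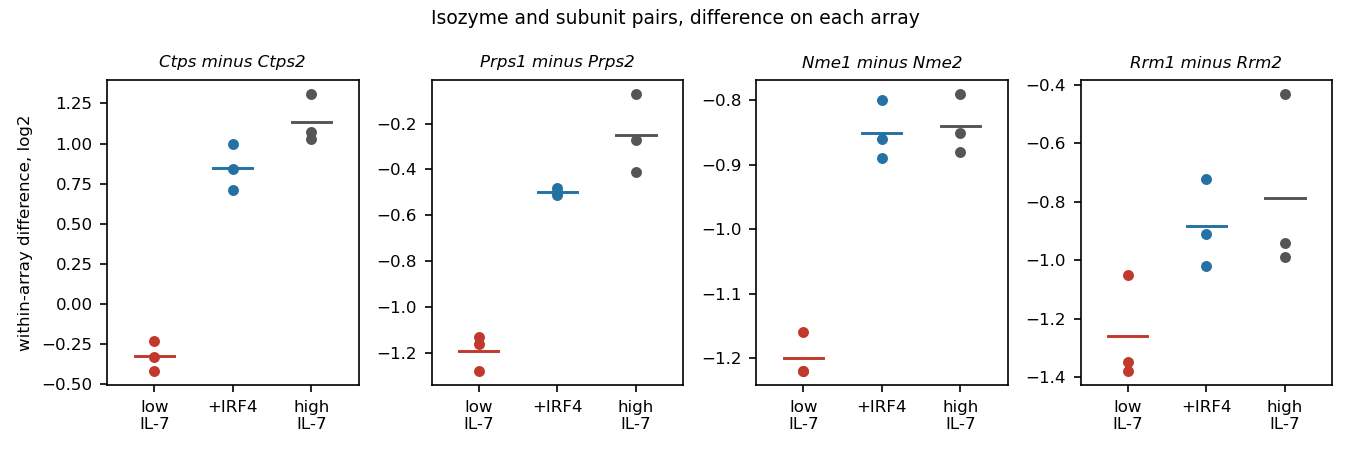
Each panel is a gene pair, and the y axis is the log2 intensity of the first gene minus that of the second on the same array, on its own scale per panel. Points are arrays and bars group means for low IL-7, +IRF4 in high IL-7 and high IL-7; in all 4 panels the low IL-7 arrays lie below the high IL-7 arrays, for example from -0.42 to -0.23 against 1.03 to 1.31 for Ctps minus Ctps2.

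IRF4 in high IL-7 was set against high IL-7 alone to ask what IRF4 changes while the cytokine is held. Of the 31 genes none was called by limma in either direction, where 2.85% of all genes were called, 1.89% higher and 0.951% lower. The groups did not overlap for 3 genes that were higher (10% of all genes) and 3 that were lower (11%). At an unadjusted p under 0.05 there were 3, Cmpk1, Dhodh and Rrm2 (9.68%, against 15.1% of all genes). The changes ran from -0.33 to 0.26 with a median of -0.07, against -0.01 for all genes. For all 31 the 95% interval stayed within a 2-fold change, and for 27 it stayed within 0.5 on the log2 scale. The widest interval was that of Cad, -0.70 to 0.55. Cmpk1 came closest to a call, at 0.26 (SE 0.06, adjusted p = 0.069), with the IRF4 arrays above the high IL-7 arrays, and it passed after quantile normalization (0.25, adjusted p = 0.02). With array weights, which called 1613 of all genes higher and 1711 lower, Cmpk1, Rrm2 and Ctps2 were called higher and Dhodh and Ctps lower. Dhodh was at -0.30 (95% interval -0.52 to -0.08, adjusted p = 0.173) and Ppat at -0.22 (95% interval -0.49 to 0.05, adjusted p = 0.456), both with the IRF4 arrays below the high IL-7 arrays.

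The IRF4 and low IL-7 groups were then compared directly, which tests whether the states differ in these genes. Of the 31, 22 were higher with IRF4 than in low IL-7 (71%, against 18.6% of all genes), 3 were lower (9.68%, against 17.7%) and 6 did not pass. At least 2-fold differences were found for 12, all higher with IRF4 (2.98% of all genes were that much higher). The largest were Cad at 1.69 (SE 0.28), Aprt at 1.58 (SE 0.08) and Gart at 1.52 (SE 0.14). The 3 that were lower were Dck (-0.73, SE 0.06, adjusted p = 1.55e-05), Rrm2 (-0.32, SE 0.07, adjusted p = 0.00421) and Tyms (-0.49, SE 0.17, adjusted p = 0.0444). The Rrm2 call was lost with the mean of its probe sets (-0.10, adjusted p = 0.282), and the Tyms call without any 1 of 6 arrays and under 3 other settings, with an adjusted p of up to 0.225. This comparison shares its low IL-7 arrays with that of low and high IL-7, so these counts are not separate evidence. Prps2 was called here (0.30, SE 0.09, adjusted p = 0.02), though its adjusted p was 0.0536 to 0.0723 when replicate 2 or 3 of low IL-7, or IRF4 replicate 3, was left out, and Paics (0.22, SE 0.06, adjusted p = 0.0205) likewise lost its call without the same arrays (adjusted p up to 0.084) and without a variance trend (0.0649).

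Neighbouring parts of nucleotide metabolism were counted from lists of other genes. Of 16 tested genes of folate and serine metabolism, 11 fell in low IL-7 (68.8%, against 19.6% of all genes) and none rose (17.8% of all genes did), with a median of -1.05. They included Slc19a1, the reduced folate carrier (-1.87), Shmt1 and Shmt2, the serine hydroxymethyltransferases that load folate (-1.38 and -2.04), and Slc25a32, the mitochondrial folate carrier (-1.42). Of 13 salvage and transport genes 6 fell and 3 rose, 46.2% and 23.1% against the same 19.6% and 17.8% of all genes (median -0.26). The falls included Mtap, which recovers adenine from methylthioadenosine (-1.70), Dctd, dCMP deaminase (-1.61), Pnp, purine nucleoside phosphorylase (-1.08), and Adk, adenosine kinase (-1.27).

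Of 8 tested genes that control dNTP pools 2 fell and 3 rose in low IL-7, 25% and 37.5% against 19.6% and 17.8% of all genes. The rises were Rrm2b, the p53-induced small reductase subunit (0.97), Glrx, a glutaredoxin that can reduce the reductase (1.23), and Samhd1, which breaks down dNTPs (1.01). The larger fall was that of Dnph1, a deoxynucleoside monophosphate hydrolase (-1.63). Of 8 genes of ribose phosphate supply 3 fell and 1 rose (37.5% and 12.5%), among them Pgd, phosphogluconate dehydrogenase (-0.97). Of 10 breakdown genes 3 fell and 1 rose (30% and 10%), with Nt5c, a deoxynucleotidase, at -0.74 and Ampd2, an AMP deaminase, at -0.75. Among 9 other kinases and isozymes 2 fell and 2 rose (22.2% each). Each of these last shares rests on at most 3 genes and stands against the same 19.6% lower and 17.8% higher of all genes. The muscle-type adenylosuccinate synthetase gene Adssl1 rose (1.22), where Adss fell, and the mitochondrial kinase gene Nme4 fell (-1.10).

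Genes of the DNA replication machinery, many of them transcribed at S phase, were called lower in low IL-7 about as often as all genes. Of 18 tested 3 fell, Mcm3 (-0.51), Cdc6 (-0.47) and Gins1 (-0.41), which is 16.7% against 19.6% of all genes. None rose, where 17.8% of all genes did, and the median was -0.04. With IRF4 against high IL-7, called genes among all these lists were Rpia, ribose phosphate isomerase (0.51, adjusted p = 0.00365), and Dctd (-0.58, adjusted p = 0.0365). The other lists of these neighbouring parts held no call there, where 2.85% of all genes were called.

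**Figure D4:**
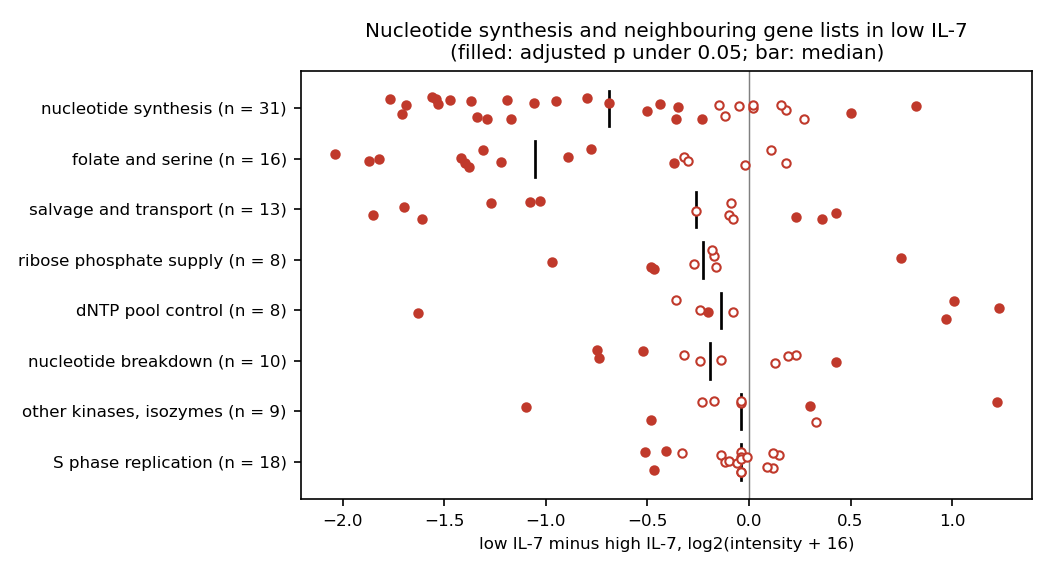
Each row is a gene list with the number of genes tested, the x axis is low IL-7 minus high IL-7 in log2(intensity + 16), each point a gene (filled where the adjusted p was under 0.05) and each bar the median. The medians of the nucleotide synthesis and the folate and serine genes were -0.69 and -1.05, against -0.04 for the replication genes.

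Transcription factors known to act on these routes were read on the same arrays. Myc was at 514, 673 and 488 in low IL-7, 2949, 2517 and 2735 on the IRF4 arrays, and 4565, 2768 and 3606 in high IL-7. The low IL-7 arrays were far below both other groups, a change of -2.66 (SE 0.17, adjusted p = 1.95e-06), and with IRF4 the change of -0.39 against high IL-7 did not pass (adjusted p = 0.33). The brightest Mycn probe set was at 277, 317 and 296 in low IL-7, 6358, 8100.3 and 9089.6 on the IRF4 arrays, and 267, 269 and 282 in high IL-7. It rose by 4.75 with IRF4 (SE 0.12, adjusted p = 2.75e-08), but the middle probe set changed by -0.11 there and by -1.47 in low IL-7, and the dimmest by -0.06 and -0.03, so the Mycn probe sets disagree. Atf4, a regulator of folate and serine genes, was at 2556, 2477 and 2273 in low IL-7, 5634, 4316 and 4349 on the IRF4 arrays, and 6084, 4895 and 5097 in high IL-7, a change of -1.13 in low IL-7 (SE 0.11, adjusted p = 2.91e-05). E2f2, of the E2F family that drives S phase genes, rose in low IL-7 by 0.72 (SE 0.12, adjusted p = 0.000851), E2f3 changed by -0.47 (adjusted p = 0.00501), Max by -0.39 (adjusted p = 0.0341), and E2f1 by 0.05 (adjusted p = 0.722). Nrf1 changed by -0.15 (adjusted p = 0.242). The part of any of them in the changes above was not tested.

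**Figure D5:**
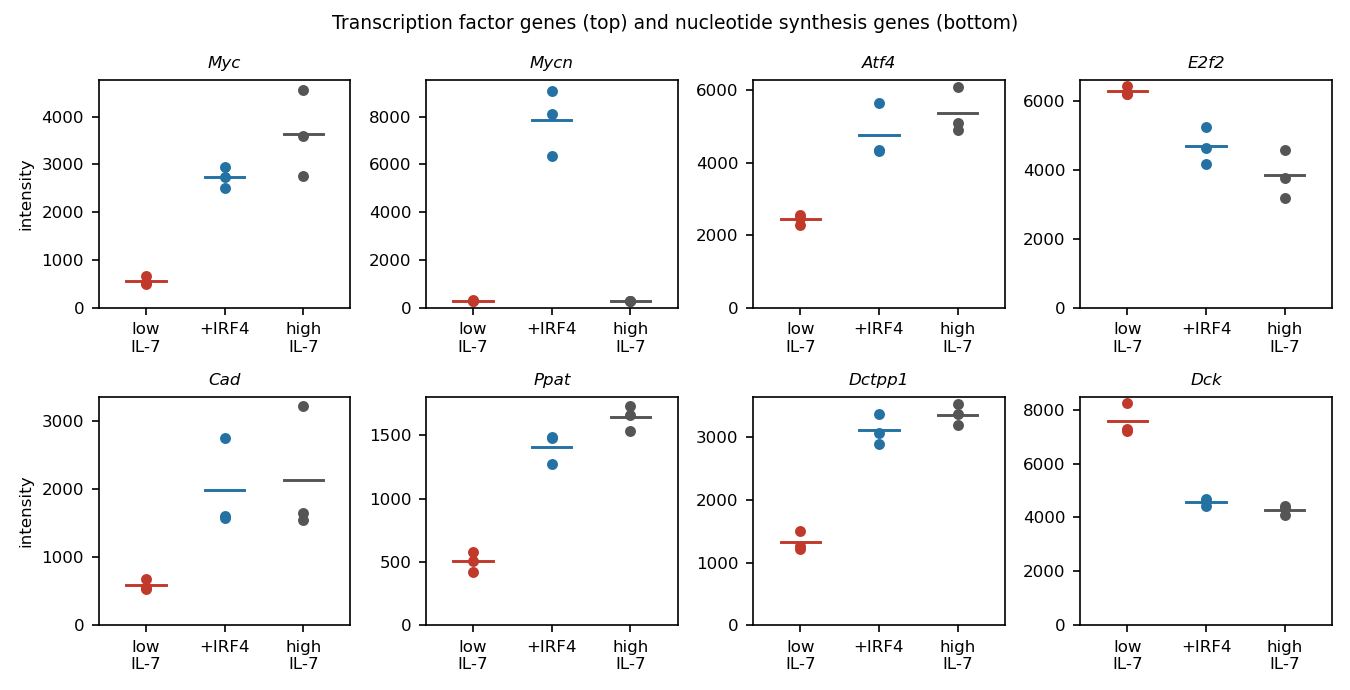
Intensity on a linear scale from 0, per array (points) with the group mean (bars), for Myc, Mycn, Atf4 and E2f2 in the top row and Cad, Ppat, Dctpp1 and Dck below. The low IL-7 arrays of Myc, Atf4, Cad, Ppat and Dctpp1 lie below all others, and those of Dck above, with 7203 as its lowest low IL-7 array against 4424 as its highest high IL-7 array.

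As further checks, 7 of 8 B-lineage markers were measured and summed to 57271 to 60783 intensity units in low IL-7. Their sum was 41539 to 44753 on the IRF4 arrays and 39024 to 47658 in high IL-7. Of the 7, 4 rose in low IL-7 (57.1%, against 17.8% of all genes). With IRF4 against high IL-7 only Cd79b was called, higher by 0.47 (adjusted p = 0.0123). That is 14.3% of the 7, against 1.89% of all genes. The sum of 11 stromal markers was 2527 to 5675 in low IL-7, 2823 to 15409.7 on the IRF4 arrays and 4919.8 to 23807 in high IL-7. Of the 9 tested, 4 fell in low IL-7 (44.4%, against 19.6% of all genes). Lum and Dcn, 2 of the 11, were at most 89.9 on every array. The changes of all 9 were negative in low IL-7, with a median of -1.75. Without high IL-7 replicate 2, the array with the highest sum, 21 of the 31 nucleotide synthesis genes fell. That fit kept high IL-7 replicate 3, whose sum of 13957.6 was above every low IL-7 array, so a stromal difference remained in it. The part of stromal RNA in the changes was not tested. The sums of 8 myeloid, 6 T cell and 4 erythroid markers were at most 1226.5 on any array, though the myeloid marker Itgam rose in low IL-7 by 2.01 (SE 0.17, adjusted p = 8.74e-06), at 172 to 259 against 37.5 to 50.2 in high IL-7. Array medians were 139.7 to 151.3.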

How the data were processed

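Total RNA was hybridised to 9 Affymetrix arrays, 3 per group, per the labels. The authors deposited 1 intensity per probe set on a linear scale for 45101 probe sets. No source used here gives how the intensities were summarised and scaled. Scaling to a common level would hide a change in total RNA. Array medians differed by 0.11 on the log2 scale, so no normalization was added.

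Gene symbols came from GEO's platform annotation, and 34945 probe sets had a single symbol. Per gene the probe set with the highest mean was kept if that mean reached the 40th percentile of all probe sets (intensity 108). Groups were compared on log2(intensity + 16) with limma 3.58.1 in R 4.3.3, fitted over all 9 arrays with a variance trend, with Benjamini-Hochberg adjustment over 12828 genes and calls at 0.05. The steps were tested on simulated data. The plots were made in Python 3.11.15 using matplotlib 3.10.9. Folds are on the log2(intensity + 16) scale, which understates changes of dim genes. The number of arrays limits the precision.

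All members are named, with up to 4 genes per other list and comparison by smallest p, and the regulators in full. The members and lists were chosen with earlier results of these data known, and the Irf4 and Mycn probe sets were singled out after their values were seen. Of the other pairs of isozymes, Impdh1 and Impdh2 could not be compared.

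Same-numbered low and high IL-7 arrays had positive correlations of deviations from group means, at 0.549, 0.386 and 0.286. However, low IL-7 array 3 correlated more with array 2 of high IL-7 (0.342). Over all groups, differently numbered arrays reached 0.399, so whether the numbers in the labels mark pairs is not known. Same-numbered correlations of the IRF4 arrays with the other groups were -0.38 to -0.0129, so these arrays were not taken as pairs. Replicate correlations were 0.976 to 0.995, and no arrays were duplicates. Alternatives were other pseudocounts (32 and 64), quantile normalization, no filter, a filter at the 60th percentile, the mean of all probe sets, no variance trend, a replicate block, array weights, a fit over only the groups compared, and leaving out each array.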

Additional observations from a re-analysis of the deposited data

How the results depend on the processing

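Over all alternatives, no called change of a gene reversed. Of the 21 genes that fell in low IL-7 against high IL-7, between 20 and 21 were called without any 1 array, and the number that rose stayed at 2. That number was 4 after quantile normalization and 5 with array weights. These settings called 2542 and 4147 of all 12828 genes higher, against 2287 as reported. With IRF4 against high IL-7, 0 were called without any 1 array. There, 1 was higher after quantile normalization, and with array weights 3 were higher and 2 lower; the cause was not tested. With IRF4 against low IL-7, between 20 and 22 were higher and between 2 and 3 lower without any 1 array, and 1 was lower with the mean of all probe sets. That setting also gave a difference of changes of -0.67 (low against high IL-7) and 0.44 (IRF4 against low IL-7) for Prps1 against Prps2, -0.62 and 0.57 for Nme1 against Nme2, and -0.10 for Rrm1 against Rrm2 in low against high IL-7, and its sign turned in IRF4 against low IL-7, to -0.10 against 0.37 as reported; the probe sets of both genes disagree. With the replicate block, in a fit of all arrays or, chosen after seeing the data, of the low and high IL-7 arrays only, 21 genes fell and 2 rose, and 0 of 124 refitted calls or directions changed. Of single changes, 5 lost and 8 gained a call in low against high IL-7, 0 and 6 in IRF4 against high IL-7, and 17 and 2 in IRF4 against low IL-7, counted over genes and settings. Dim genes such as Tyms and Dhodh are measured closer to background, and the separation of cultures is unknown.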
